A study of Mus musculus with 6 samples.

Results

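miR-101, miR-135 and miR-139 are 3 microRNA (miRNA) groups of the mouse hippocampus that were followed here feature by feature. The members were all entries named miR-101a, miR-101b, miR-101c, miR-135a, miR-135b or miR-139 in the count files, with every locus and arm. They make 13 features with 12 distinct names, out of 2035 miRNA features and 109108 features in all. They were chosen with the genotype comparison of these same libraries already known, because they had not fallen with other miRNAs, so their genotype values are a description and were not tested.

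The 3 Dicer1-ifKO libraries came from mice with Dicer1 flox/flox alleles and the CaMKIIa-creERT2 transgene, and the 3 WT libraries from mice with Dicer1 flox/flox alleles and no transgene. All mice were C57BL/6 males of 3 months that had received tamoxifen (TMX) 3 weeks before sacrifice. The CaMKIIa promoter drives the tamoxifen-inducible recombinase in excitatory forebrain neurons, so glia, vessels and other neurons of the Dicer1-ifKO hippocampus keep an intact gene. Each library was made from the total RNA of 3 mice pooled in equal amounts, which gives 9 mice of each genotype in these libraries, while the design text of the series names 12. The p-values therefore measure the spread between pools.

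A miRNA gene is transcribed as a hairpin precursor, and the nuclease Dicer, encoded by Dicer1, cuts off the loop and leaves a 5′ arm (5p) and a 3′ arm (3p), of which usually one is loaded into Argonaute. Bases 2 to 8 of the mature strand, the seed, pair with target mRNAs. miR-101 is known as a repressor of the histone methyltransferase Ezh2 and, in the mouse hippocampus, of the chloride transporter Nkcc1. miR-135 is known in mouse serotonergic neurons as a repressor of the serotonin transporter Slc6a4 and the receptor Htr1a. miR-139 lies inside Pde2a, the gene of a phosphodiesterase that degrades cyclic nucleotides and is strongly expressed in forebrain.

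The mature sequences show which features can be told apart by their reads. They are given 5′ to 3′ from RefSeq (GRCm38.p6), with the seed in capitals.
miR-101a-3p: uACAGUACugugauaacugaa
miR-101b-3p: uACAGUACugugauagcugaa
miR-101c: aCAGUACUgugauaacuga
miR-139-5p: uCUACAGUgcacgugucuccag
miR-139-3p: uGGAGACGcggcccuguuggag
miR-135a-5p: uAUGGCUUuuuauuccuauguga
miR-135a-2-3p: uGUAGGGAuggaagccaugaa
A mature sequence was found for 12 of the 13 features. miR-101b-3p is shown at the place that the count files give, cut from the RefSeq hairpin, because the RefSeq mature entry starts 1 base earlier. At that place it shares its seed with miR-101a-3p and differs from it by A16G alone, counted from 1 at the 5′ end of miR-101a-3p. The 19 bases of miR-101c are bases 2 to 20 of miR-101a-3p, so a miR-101a-3p read that lacks its first base can match both places, and the miR-101c feature cannot be told apart from trimmed miR-101a-3p. Read on its own, miR-101c has a seed shifted by 1 base. miR-135a-5p has an identical sequence at its 2 loci, so its mature reads cannot be assigned to either. miR-139-5p and miR-101a-3p share a run of 6 bases across their seeds, UACAGU, at different offsets.

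The members lie in different kinds of transcripts (GRCm38, GENCODE M21). Mir101a (chr4:101346945-101347027, minus strand) lies in an exon of the long noncoding RNA E130102H24Rik, and Mir101b (chr19:29135279-29135375, plus strand) in an intron of Rcl1, a gene of ribosomal RNA processing. Mir101c (chr9:3038669-3038743, minus strand) lies in no other annotated gene. Mir135a-1 (chr9:106154124-106154213, plus strand) lies in an intron of the antisense RNA D030055H07Rik and opposite an exon of Glyctk, the gene of glycerate kinase. Mir135a-2 (chr10:92072086-92072185, minus strand) lies intronic to Rmst, a long noncoding RNA, and Mir135b (chr1:132198088-132198184, plus strand) in an intron of Lemd1. Mir139 (chr7:101475376-101475443, plus strand) lies in an intron of Pde2a.

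Depth and tissue were checked over the whole series. miRNA features held 2318205 to 2739366 counts per Dicer1-ifKO library and 2724752 to 3179363 per WT library. The Dicer1 span held 37, 32 and 35 counts in Dicer1-ifKO replicates 1, 2 and 3, against 45, 33 and 47 in WT replicates 1, 2 and 3. These reads cover the whole gene and do not resolve the floxed part, so they check no genotype label. All 5 neuron marker miRNAs were present, while miR-122-5p of liver and miR-206-3p of muscle had under 3 counts per library on average. Summed neuron markers stood at 2539 to 3218 CPM (the counts-per-million scale) in Dicer1-ifKO and 3054 to 3914 CPM in WT. The sum of the 3 astrocyte-enriched miRNAs (6302 to 7098 against 7813 to 9557 CPM) and that of the 4 choroid plexus miRNAs (220 to 238 against 321 to 347 CPM) did not overlap between Dicer1-ifKO and WT, nor did that of the 3 microglia and leukocyte miRNAs found (176 to 197 against 141 to 176 CPM). The oligodendrocyte (240 to 330 against 200 to 320 CPM), vessel (454 to 616 against 358 to 588 CPM) and erythrocyte sums (8.60 to 10.5 against 8.71 to 12.4 CPM) overlapped. Because the lists used other names for them, miR-142-3p and miR-142-5p of leukocytes and miR-486-5p of erythrocytes are not in these sums. Their log2 changes were 1.115, 0.181 and -0.129. The part of these cell types in the values of the members was not tested.

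The genotype question is how far these miRNAs differed after Dicer1 was inactivated in excitatory neurons. The features did not share 1 pattern. In CPM of the deposited counts, scaled over all features, the main strands of miR-101 overlapped between genotypes. On that scale miR-139-5p was lower in Dicer1-ifKO without overlap. miR-139-3p, miR-101a-5p and miR-135a-2-3p were higher without overlap, the last of them barely (1.489 against 1.483 CPM at the nearest libraries). With arm counts above the host span removed, as described further on, miR-139-3p had a log2 change of -0.85, and miR-101a-5p overlapped between genotypes. The miR-139-3p counts left were lower in every Dicer1-ifKO library, but they are upper limits in both genotypes. Of the 13 features, 10 passed the count filter. The other 3 had few reads in both genotypes, with 6 counts over all libraries for miR-135b-3p, 40 for miR-135a-1-3p and 4 for miR-101b-5p. In bulk RNA, fewer cells of a type and less RNA per cell cannot be told apart.

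**Figure D1:**
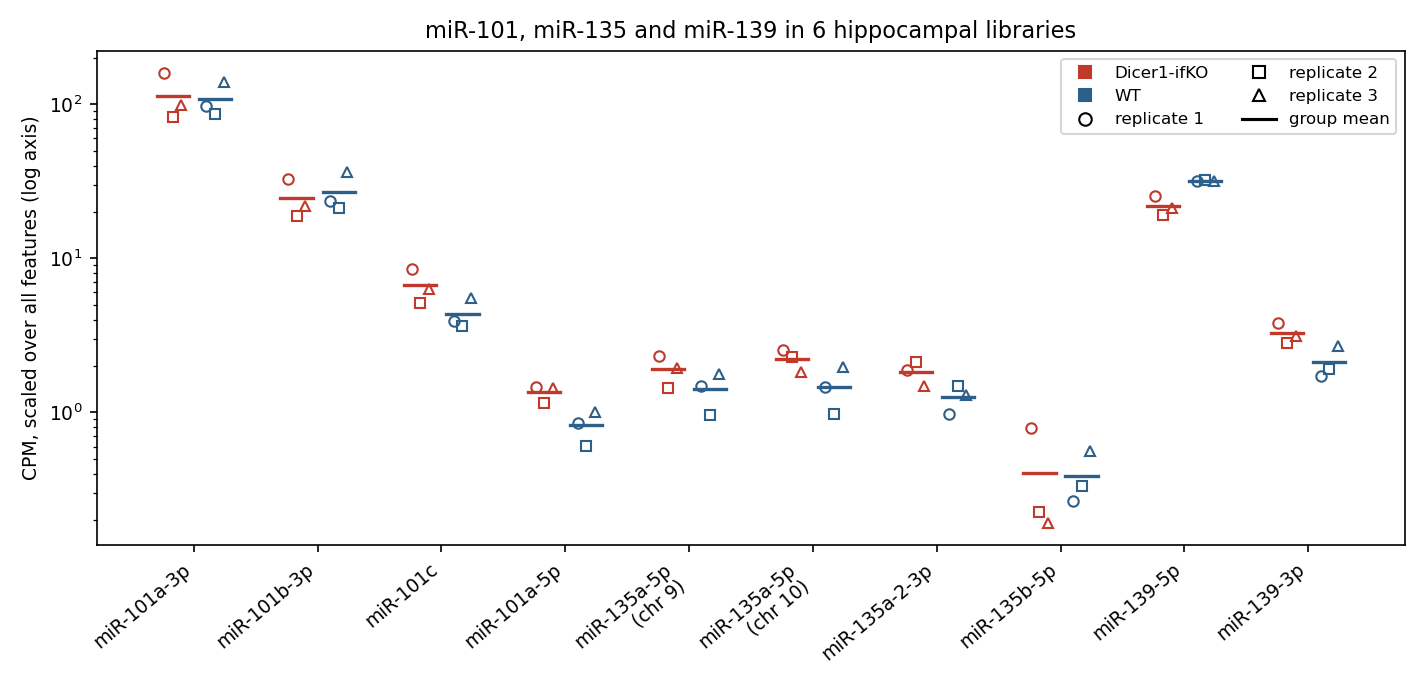
Level of the 10 members that passed the count filter, in CPM scaled over all features on a log axis, with Dicer1-ifKO in red left of WT in blue, 1 symbol per library and a line at the group mean. miR-139-5p lies at 19.1 to 25.3 CPM in Dicer1-ifKO, below the WT libraries at 31.8 to 32.1 CPM, while the miR-101a-3p and miR-101b-3p libraries overlap.

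miR-101a-3p was the most abundant member and ranked 71 among the 2035 miRNA features. It stood at 159, 83.2 and 98.6 CPM in Dicer1-ifKO replicates 1, 2 and 3, against 97.1, 86.6 and 139.4 CPM in WT replicates 1, 2 and 3. The high libraries were Dicer1-ifKO replicate 1 and WT replicate 3, and the genotypes overlapped. The log2 change was 0.08 ± 0.27 (SE, n = 3 each) with a 95% interval of -0.55 to 0.71, which includes changes in either direction. Without Dicer1-ifKO replicate 1 it was -0.25, without WT replicate 2 it was -0.05, and without WT replicate 3 it was 0.35.

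miR-101b-3p, the other main strand of the group, showed the same high libraries. It stood at 32.5, 18.9 and 22.0 CPM in Dicer1-ifKO replicates 1, 2 and 3, against 23.4, 21.3 and 36.2 CPM in WT replicates 1, 2 and 3. Its log2 change was -0.14 ± 0.25 (SE, n = 3 each), with a 95% interval of -0.71 to 0.42. Scaled over the miRNA features it was 0.11, without Dicer1-ifKO replicate 2 it was 0.03 and without WT replicate 3 it was 0.17, so its sign rests on the scaling and on single libraries. Within a library, where no scaling enters, miR-101a-3p held 4.89, 4.40 and 4.49 times the counts of miR-101b-3p in Dicer1-ifKO, against 4.15, 4.06 and 3.86 times in WT, and the genotypes did not overlap. The 2 strands differ by 1 base, and the treatment of reads that match both is not given in the sources used here.

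miR-101c and the minor arm miR-101a-5p were higher in Dicer1-ifKO relative to miR-101a-3p. The miR-101c feature held 352, 275 and 299 counts in Dicer1-ifKO replicates 1, 2 and 3, against 191, 174 and 258 in WT replicates 1, 2 and 3. It amounted to 5.33%, 6.20% and 6.45% of the miR-101a-3p counts in Dicer1-ifKO, against 4.01%, 4.19% and 3.98% in WT, without overlap. In CPM scaled over all features the genotypes overlapped, at 8.48, 5.16 and 6.36 in Dicer1-ifKO and 3.90, 3.63 and 5.55 in WT. Scaled over the miRNA features they did not, at 5.93 to 8.37 CPM in Dicer1-ifKO and 3.56 to 4.39 CPM in WT. miR-101a-5p held 61, 61 and 68 counts in Dicer1-ifKO replicates 1, 2 and 3, against 42, 29 and 47 in WT replicates 1, 2 and 3, or 1.35 ± 0.18 and 0.82 ± 0.20 CPM (SD, n = 3 each). Relative to miR-101a-3p this was 0.92%, 1.38% and 1.47% in Dicer1-ifKO, against 0.88%, 0.70% and 0.72% in WT. Every Dicer1-ifKO library lay above every WT library in this share, although Dicer1-ifKO replicate 1 did so narrowly. That separation was lost with the excess over the host span removed, at 0.74%, 1.15% and 1.21% in Dicer1-ifKO and 0.88%, 0.70% and 0.72% in WT.

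In the deposited counts, the 2 arms of miR-139 changed in opposite directions. This did not hold with the excess over the host span removed, as given below. miR-139-5p, the main strand, stood at 25.3, 19.1 and 21.1 CPM in Dicer1-ifKO replicates 1, 2 and 3, against 31.8, 32.1 and 32.0 CPM in WT replicates 1, 2 and 3. Under this scaling over all features the WT pools lay close together (31.9 ± 0.18 CPM, SD). Every Dicer1-ifKO pool was below them, which goes against calling this strand kept under it. The log2 change was -0.55 ± 0.16 (SE, n = 3 each), a ratio of 0.68. Scaled over the miRNA features it was -0.33 ± 0.16, with a 95% interval of -0.68 to 0.03 that includes no change. There Dicer1-ifKO replicate 1, at 25.0 CPM, lay just below WT replicate 3, at 25.3 CPM. miR-139-3p, the minor strand, held 159, 151 and 147 counts in Dicer1-ifKO replicates 1, 2 and 3, against 85, 92 and 126 in WT replicates 1, 2 and 3. In CPM it averaged 3.26 ± 0.51 in Dicer1-ifKO and 2.12 ± 0.52 in WT (SD, n = 3 each), and the log2 change was 0.62 ± 0.21 (SE). The ratio of miR-139-5p to miR-139-3p counts was 6.60, 6.73 and 6.75 in Dicer1-ifKO, against 18.3, 16.7 and 11.8 in WT.

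The 2 arms of miR-139 held more counts in sum than the transcript span of Pde2a that contains them, mostly in Dicer1-ifKO. The counting rule is not given in the sources used here. Were each read entered into all features it touches, a read across both arms would enter both arm features but the span once, and the excess of the arm sum would be the least number of such reads. The arms summed to 1209, 1168 and 1139 counts in Dicer1-ifKO replicates 1, 2 and 3, where the span held 1090, 1056 and 1043. In WT replicates 1, 2 and 3 they summed to 1642, 1630 and 1612, where the span held 1632, 1610 and 1577. The excess was thus 119, 112 and 96 counts in Dicer1-ifKO, against 10, 20 and 35 in WT, and the groups lay far apart. It made up 74.8%, 74.2% and 65.3% of the miR-139-3p counts in Dicer1-ifKO, against 11.8%, 21.7% and 27.8% in WT. Under that counting rule the reads carry loop sequence, which lies between the arms in the hairpin, here with its arms in capitals.
Mir139 hairpin: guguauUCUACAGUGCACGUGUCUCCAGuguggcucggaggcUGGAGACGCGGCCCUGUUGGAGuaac
The 14 bases between the arms are the loop that Dicer removes. The arms and the loop together measure 58 bases, while the header of 1 WT library gives inserts of 18 to 50 bases, so no read of that range covers both arms whole. A read touching both arms in part can be that short. Read positions were not used here, and whether these are uncut precursors was not tested.

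With the excess taken out of both arms, the upper limit for miR-139-3p was lower in every Dicer1-ifKO library than in every WT library. At most 40, 39 and 51 counts were then left to miR-139-3p in Dicer1-ifKO replicates 1, 2 and 3, against 75, 72 and 91 in WT replicates 1, 2 and 3. These are 0.93 ± 0.18 and 1.66 ± 0.25 CPM (SD, n = 3 each), a log2 change of -0.85 ± 0.22 (SE), where the deposited counts gave 0.62. For miR-139-5p the log2 change was then -0.69 ± 0.16 (SE), with at most 19.5 ± 2.74 and 31.5 ± 0.25 CPM in Dicer1-ifKO and WT. The ratio of the arms then overlapped between the genotypes, at 23.3, 23.2 and 17.6 in Dicer1-ifKO and 20.6, 21.1 and 15.9 in WT. Since the values left are upper limits in both genotypes, their order does not settle that of the counts free of such reads. This correction was chosen after the counts had been seen.

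**Figure D2:**
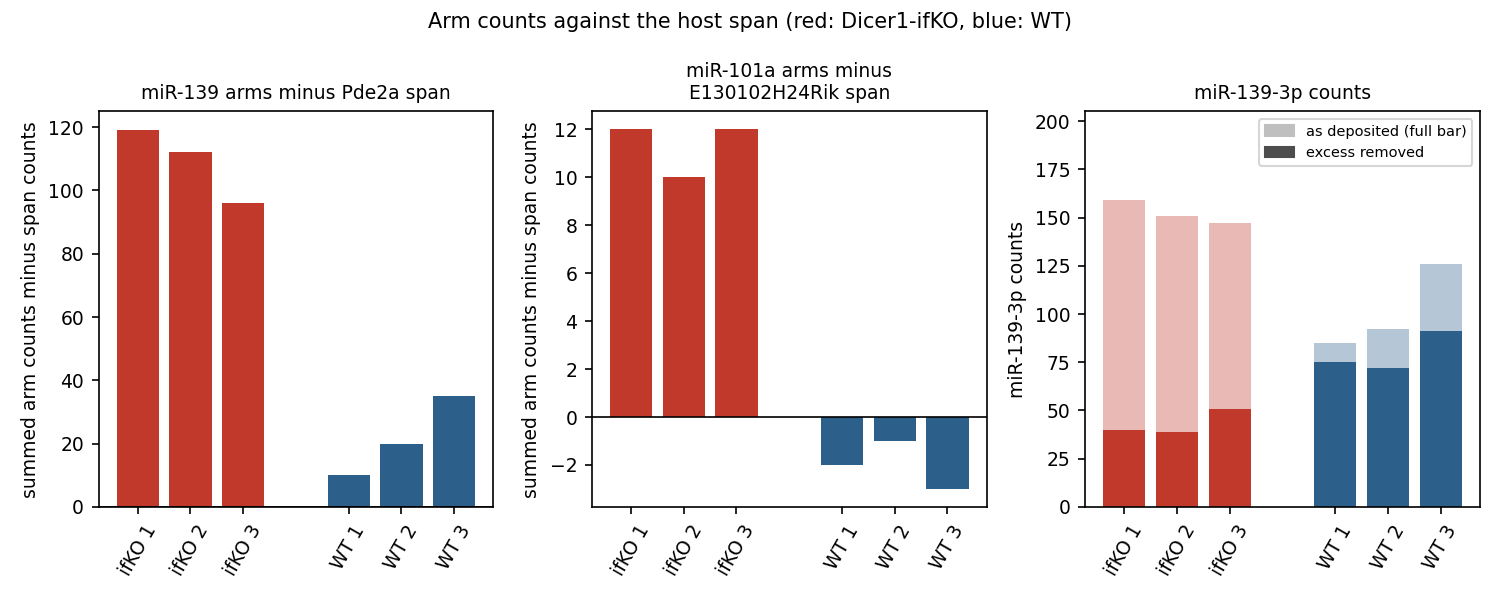
Summed arm counts minus the counts of the host span, in counts per library, for miR-139 (left) and miR-101a (middle), and miR-139-3p counts as deposited and with the excess removed (right), Dicer1-ifKO in red and WT in blue. The miR-139 excess is 96 to 119 counts in Dicer1-ifKO and 10 to 35 in WT. Without it the upper limits for miR-139-3p are 39 to 51 counts in Dicer1-ifKO and 72 to 91 in WT.

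The same excess appeared for miR-101a on a smaller scale. Its arms summed to 6669, 4496 and 4701 counts in Dicer1-ifKO replicates 1, 2 and 3, which is 12, 10 and 12 above the E130102H24Rik span. In WT replicates 1, 2 and 3 they summed to 4801, 4178 and 6530 counts, which is 2, 1 and 3 below the span. Removing the excess left miR-101a-5p at 49, 51 and 56 counts in Dicer1-ifKO, against 42, 29 and 47 in WT, and its log2 change was 0.42 ± 0.23 in place of 0.71 ± 0.23 (SE). In CPM these are 1.18, 0.957 and 1.19 in Dicer1-ifKO replicates 1, 2 and 3, against 0.857, 0.606 and 1.01 in WT replicates 1, 2 and 3, so Dicer1-ifKO replicate 2 lay below WT replicate 3 and the genotypes overlapped. miR-101a-3p was hardly touched, at 0.07 in place of 0.08. In its hairpin the loop between the arms, in lower case, is 15 bases long.
Mir101a hairpin: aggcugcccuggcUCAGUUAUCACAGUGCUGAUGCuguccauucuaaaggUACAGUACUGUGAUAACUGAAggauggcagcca

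Such an excess showed for few other hairpins. Any further read in a span lowers the difference, so these counts do not measure how common reads across both arms were. Over 74 hairpins that lie alone in a transcript span and average at least 100 arm counts per library, the arm sum was above the span in all Dicer1-ifKO libraries for 4 (5.41%) and in all WT libraries for 3 (4.05%). The 4 were miR-139, miR-101a, miR-1843a and miR-1843b. The arm sum minus the span count was higher in every Dicer1-ifKO library than in every WT library for 6 of the 74 (8.11%) and lower for 1 (1.35%), and miR-139 and miR-101a were the 2 (2.7%) that were also above 0 in all Dicer1-ifKO libraries. miR-101b showed none, with arm sums from 2 below to level with the Rcl1 span in Dicer1-ifKO and from 2 below to 1 above it in WT. Mir135a-1 had differences of 1, -2 and 0 counts in Dicer1-ifKO replicates 1, 2 and 3 and 0 in each WT library. miR-1843a and miR-1843b are named because the count of 4 includes them, after their values had been seen.

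**Figure D3:**
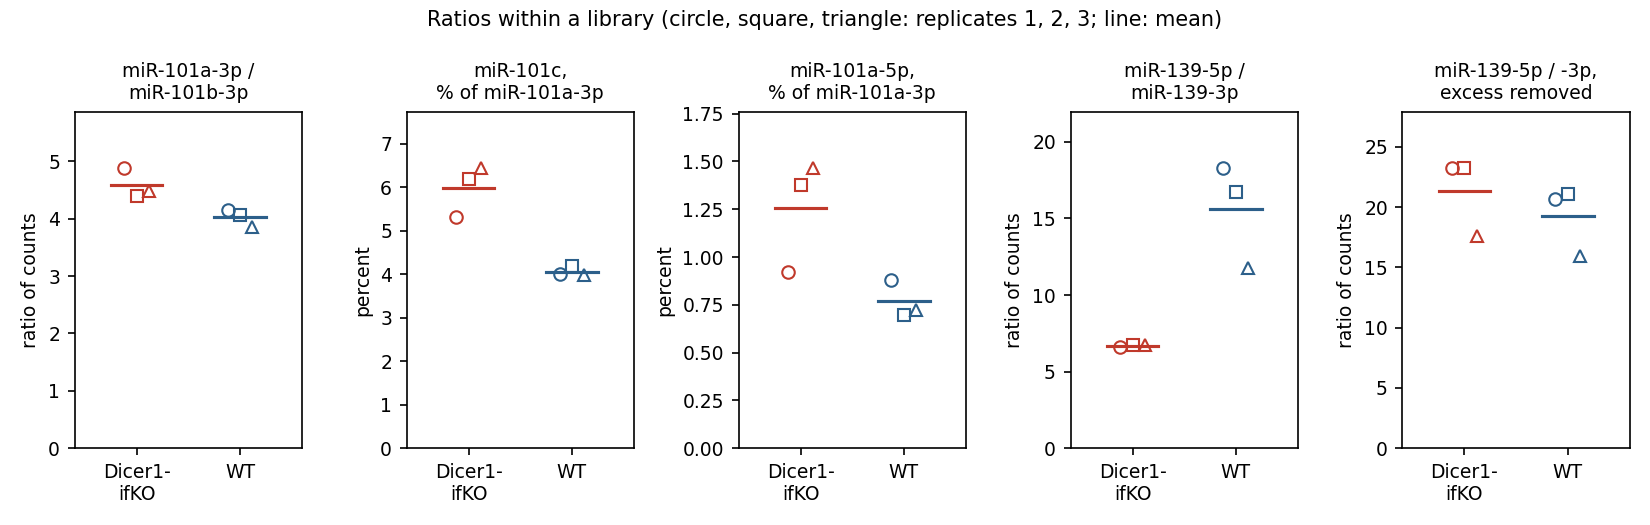
Ratios of member counts within each library, on linear axes from 0, with Dicer1-ifKO in red left of WT in blue, 1 symbol per replicate and a line at the mean. The ratio of miR-139-5p to miR-139-3p is 6.60 to 6.75 in Dicer1-ifKO and 11.8 to 18.3 in WT as deposited, and the genotypes overlap once the excess over the host span is removed.

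miR-135 had low counts and higher means in Dicer1-ifKO. The chromosome 10 feature of miR-135a-5p held 105, 121 and 86 counts in Dicer1-ifKO replicates 1, 2 and 3, against 72, 47 and 91 in WT replicates 1, 2 and 3. The chromosome 9 feature, which has the same sequence, held 96, 77 and 91 in Dicer1-ifKO, against 73, 46 and 83 in WT. In both, WT replicate 2 was the lowest library, and WT replicate 3 lay within the Dicer1-ifKO range in CPM scaled over all features. On that scale WT replicate 1 also did so for the chromosome 9 feature, at 1.489 CPM against 1.445 CPM in Dicer1-ifKO replicate 2. Scaled over the miRNA features, neither feature overlapped between genotypes. WT replicate 3 then stood at 1.55 CPM for chromosome 10, where the lowest Dicer1-ifKO library had 2.07 CPM. For chromosome 9 these were 1.41 and 1.66 CPM. Scaled over all features, the log2 changes were 0.59 ± 0.24 and 0.42 ± 0.25 (SE, n = 3 each). They are not separate results, since mature reads of both loci are the same. The loci held nearly equal counts in 5 of the 6 libraries, with ratios of chromosome 10 over chromosome 9 from 0.95 to 1.10. In Dicer1-ifKO replicate 2 the ratio was 1.57.

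The minor strand of the chromosome 10 hairpin, miR-135a-2-3p, held 78, 113 and 70 counts in Dicer1-ifKO replicates 1, 2 and 3, against 48, 71 and 60 in WT replicates 1, 2 and 3. It was highest in Dicer1-ifKO replicate 2, the library in which the chromosome 10 feature of miR-135a-5p also exceeded its twin. In CPM it averaged 1.83 ± 0.32 in Dicer1-ifKO and 1.25 ± 0.25 in WT (SD, n = 3 each), a log2 change of 0.55 ± 0.22 (SE). The genotypes were barely apart, at 1.489 CPM in Dicer1-ifKO replicate 3 and 1.483 CPM in WT replicate 2. No transcript span that holds this hairpin alone was found, so its arm sum was not compared with a span. miR-135b-5p, made from the Lemd1 intron, held 33, 12 and 9 counts in Dicer1-ifKO replicates 1, 2 and 3, against 13, 16 and 26 in WT replicates 1, 2 and 3. Its log2 change of 0.02 ± 0.60 (SE) has a 95% interval of -1.42 to 1.45, so no direction was detectable at this depth. It was -0.88 without Dicer1-ifKO replicate 1, -0.20 without WT replicate 1 and -0.06 without WT replicate 2.

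The arms of a hairpin can be compared within each library without the genotype contrast, and 3 hairpins averaged at least 10 counts per library in both arms. miR-101a-3p exceeded miR-101a-5p in 6 of 6 libraries, by a mean log2 ratio of 6.67 ± 0.45 (SD, n = 6), and miR-139-5p exceeded miR-139-3p in 6 of 6, by 3.34 ± 0.69. Both gave a two-sided exact sign-flip permutation p of 0.031, the smallest that 6 libraries allow, and an adjusted p of 0.047 over the 3 pairs. miR-135a-5p, averaged over its 2 loci, exceeded miR-135a-2-3p in 4 of 6 libraries, by a mean log2 ratio of 0.17 ± 0.47 (SD, n = 6, exact permutation p = 0.41, adjusted p = 0.41). With its loci summed the ratio was 1.17 (adjusted p = 0.031 by the same exact permutation test). The sum lies 1 above the average on the log2 scale by construction, so the choice between them sets this outcome. Ligation and amplification favour some sequences, so a ratio of arms in a library is not one of molecules. The miR-139 value includes the excess over the host span.

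Across all tested members, 8 of 10 log2 changes lay above 0 and 2 below, with a median of 0.49. Of all 546 tested miRNA features 24.5% lay above 0 (median -0.24), and the median of all 6539 tested features was -0.05. At an adjusted p of 0.05 edgeR called 0 of the 10 members lower and 0 higher, where it called 6.59% of the miRNA features and 0.795% of all features lower, and 0% and 0.0153% higher. DESeq2 also called 0 members, where it called 4.76% of the miRNA features lower and 0% higher. Without adjustment, at a p of 0.05, edgeR had 1 member lower, where 31.1% of the miRNA features and 6.47% of all features were lower. It had 5 members higher, where 2.01% of the miRNA features and 1.35% of all features were. In CPM scaled over all features, 3 members were higher and 1 was lower with no overlap, against 2.01% and 33.9% of the miRNA features. Shares without overlap were not computed over all features or for ratios within a library. The members were chosen from this contrast, so these counts carry no weight of their own. They are not separate either, since both miR-135a-5p features and the miR-101a-3p and miR-101c features share sequence, and the 3 other members had too few counts to be tested.

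**Figure D4:**
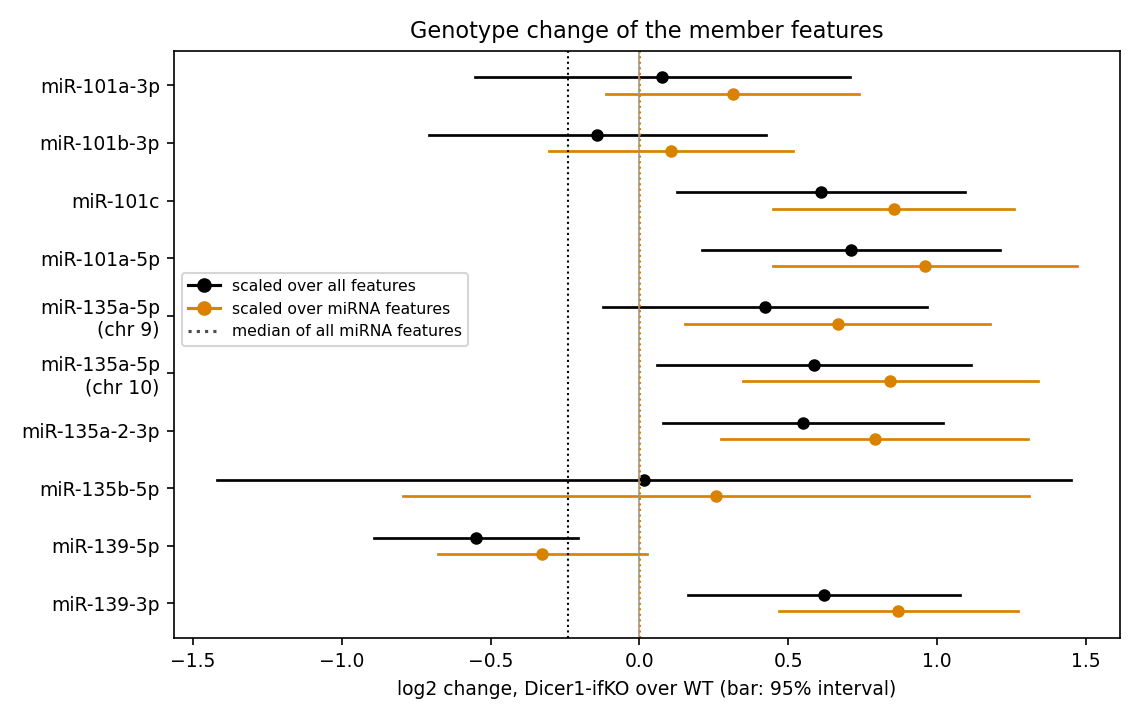
log2 change of Dicer1-ifKO over WT for each tested member with its 95% interval, scaled over all features (black) or over the miRNA features (orange), with dotted lines at the median of all miRNA features under each scaling. miR-139-5p is below 0 under both scalings, at -0.55 and -0.33, and miR-101b-3p lies at -0.14 and 0.11.

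The scaling shifted every member upwards. Scaled over the miRNA features alone, the median of all miRNA features was 0.0013 in place of -0.24, that of the other features 0.20 in place of -0.03 and that of the members 0.73 in place of 0.49. Relative to the median of all miRNA features, the members therefore stood about as far above it under both scalings. With that scaling edgeR called 0 members lower and 0 higher, where 1.47% of the miRNA features were lower and 0% higher, and 6 members were higher and 1 lower without overlap, where 13.9% of the miRNA features were higher and 19.2% lower. Without adjustment it had 0 members lower and 6 higher, where 12.3% of the miRNA features were lower and 8.61% higher. In an edgeR fit of the miRNA features without any others, 5 members were called higher and 0 lower, where 2% of 550 miRNA features were higher and 6.55% lower. These 5 were miR-101a-5p, miR-101c, miR-135a-2-3p, the chromosome 10 feature of miR-135a-5p, and miR-139-3p. With the excess removed and scaling over all features, miR-139-3p had a log2 change of -0.85, from counts that are upper limits. In the fit of the miRNA features without any others, miR-139-5p had a log2 change of -0.33.

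**Figure D5:**
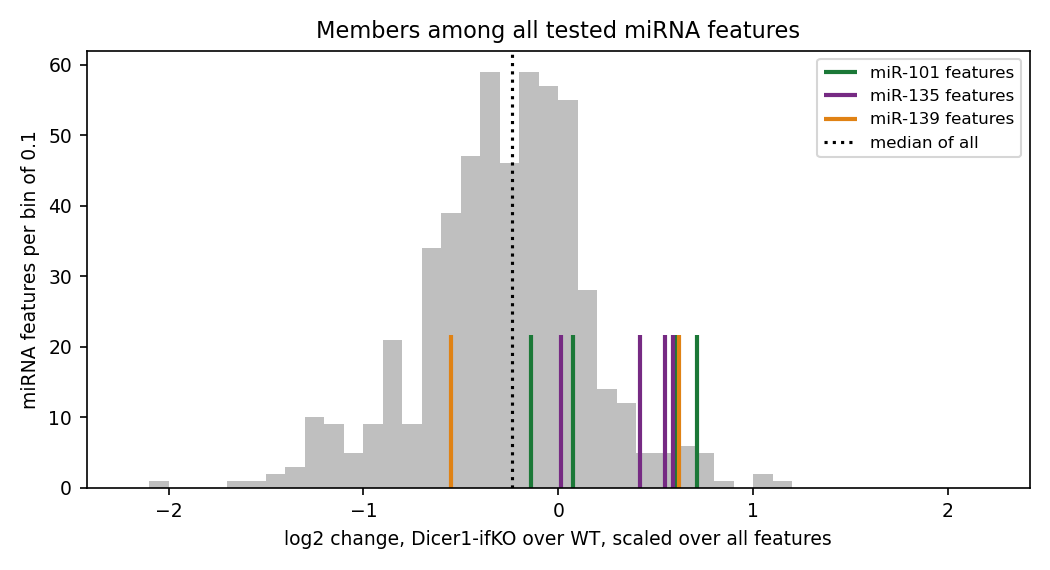
Histogram of the log2 change of Dicer1-ifKO over WT for the 546 tested miRNA features, scaled over all features, in bins of 0.1, with members as coloured lines and the median of -0.24 dotted. The main strands miR-101a-3p and miR-101b-3p lie at 0.08 and -0.14, miR-139-5p at -0.55, and miR-101a-5p at 0.71.

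Other miRNAs followed the library pattern of each group closely. Among 351 miRNAs with at least 50 counts per library on average, likeness was the root mean square difference of log2 CPM, centred over the 6 libraries, from the most abundant member of a group. Nearest to miR-101a-3p were miR-30e-5p, miR-26b-5p and miR-21a-5p, at 0.07, 0.08 and 0.09, where the median miRNA stood at 0.36. Their log2 changes were 0.13, 0.13 and 0.15, beside 0.08 for miR-101a-3p. Nearest to miR-139-5p were miR-323-3p, miR-331-3p and miR-770-5p, at 0.06, 0.06 and 0.07 (median 0.26), with log2 changes of -0.52, -0.58 and -0.62. The chromosome 10 feature of miR-135a-5p had looser neighbours, with miR-592-5p at 0.15, let-7f-2-3p at 0.23 and miR-193a-3p at 0.25 (median 0.54), and their log2 changes were 0.43, 0.16 and 0.81. All rest on the same 6 libraries and their depth. The neighbours were chosen by their values in both genotypes, so log2 changes near those of the members follow from that choice.

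Beside the members, a list of 11 neuron-enriched miRNAs had 40 tested features, of which 4 were called lower and 0 higher by edgeR, with 31 below 0 and a median of -0.30. That is near the background of all 546 tested miRNA features, of which 36 (6.59%) were called lower and 412 lay below 0, with a median of -0.24. Of 14 genes of the miRNA pathway, such as Drosha, Dgcr8 and the Argonautes, 10 names were matched and 4 had enough span reads to be tested, with 0 called in either direction by edgeR and log2 changes below 0 in 3. These span reads are fragments in a small RNA library and do not measure mRNA.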

How the data were processed

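Small RNA libraries of mouse hippocampus were made with the Illumina TruSeq small RNA protocol, per the labels. The authors deposited raw read counts per feature (whole numbers, with no scaling) and a normalized column, a signal equal to the raw counts of a library times 1 constant, which was not used further. Tools listed by the submitters' processing notes, with no role stated, are BWA, DESeq2, SAMtools 0.1.18 and CASAVA 1.8.2, and the build is GRCm38. How reads were counted, on which strand and with what treatment of multiple alignments is not given in the sources used here. Groups and replicates came from the sample titles.

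Rows that repeat the counts of another row of the same gene were kept once (43770 of 109108 removed). The fit used edgeR 4.0.16 in R 4.3.3: filterByExpr (minimum count 10), TMM over all tested features or over the miRNA features, glmQLFit (robust) and glmQLFTest, two-sided, Benjamini-Hochberg over 6539 features, threshold 0.05. It was tested on simulated data. CPM refers to the summed counts after removal and scaling. Intervals of 95% come from the fitted SE and cover the spread between pools only. The arms of a hairpin were compared by an exact sign-flip permutation over libraries on log2 of counts + 0.5. The members, lists and tests were chosen with earlier results of these data known. Named features were all members, the 3 nearest miRNAs for each group, and host genes. Alternatives were other scalings, DESeq2 1.42.0, other filters, joined features, the replicate number as a block, each library left out, and, added later, removal of arm counts above the host span. Chi-square per degree of freedom between same-genotype libraries was 19.3 to 57.4, so none is a copy of another library of its genotype. Libraries of different genotypes were not compared in this way.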

Additional observations from a re-analysis of the deposited data

How the results depend on the processing

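No member was called lower under any of the 16 alternatives, and a member was called higher only in the fit of the miRNA features alone (5). The median change of the members, 0.49, lay between 0.17 (no count filter) and 0.73 (miRNA features) under all of these, at 0.30 to 0.64 with 1 library left out and 0.25 with the arm counts above the host span removed, which was chosen after seeing the data. The sign turned for miR-101b-3p in 4 alternatives, miR-135b-5p in 4, miR-101a-3p in 2 and miR-139-3p in 1 (-0.85, with that excess removed), and for none of the other 6 tested members. The number of miRNAs called lower, 36, was 8 with TMM over the miRNA features, 16 on library totals alone, 24 with at least 50 counts and 26 by DESeq2. It was 19, 1 and 1 without Dicer1-ifKO replicates 1, 2 and 3, and 65, 21 and 14 without WT replicates 1, 2 and 3. The cause was not tested. With the replicate number as a block it was 3, and 0 members were called. Same-numbered libraries did not deviate together (correlations of -0.05, 0.26 and -0.26 over the miRNA features), and the nearest WT library of Dicer1-ifKO replicate 1 was replicate 3. The arm ratio was 6.58 to 6.79 for miR-101a and 3.17 to 3.46 for miR-139 with 1 library left out, where 5 libraries cannot pass (adjusted p = 0.094, exact permutation). For miR-135a-2 it was 0.09 to 0.33, and 1.17 with loci summed, which by construction adds 1. Counts under about 100 per library limit miR-135, miR-101a-5p and the host span differences.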
